A study of Mus musculus with 6 samples.

Results

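The genes described here are 10 genes of the insulin-like growth factor (IGF) axis: the ligand gene Igf1, the receptor genes Igf1r and Igf2r, the binding-protein genes Igfbp2, Igfbp4 and Igfbp5, the protease genes Pappa and Pappa2, and the stanniocalcin genes Stc1 and Stc2. They were chosen by name, and each was found once among the 54551 genes of all 6 deposited tables. Stc1 and Igfbp4 were chosen in part for how they differ between the labelled groups, so for that contrast their values are a description with no test. RNA of mouse granulosa cells, the somatic cells that nourish the oocyte inside a follicle, was sequenced in 3 libraries labelled Gm12840-/-, a knockout of a long noncoding RNA gene, and 3 libraries labelled wild type. Both groups were C57BL/6 mice at postnatal day 21 given 5 IU of PMSG, which makes follicles grow, with 5 IU of hCG 48 h later to mimic the luteinizing hormone surge, and the cells were taken 6 h after that. The libraries are called knockout 1 to 3 and wild type 1 to 3 after their labels. The labels say neither which part of Gm12840 was deleted nor whether each library came from a separate animal, so p-values measure the spread between these samples only.

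IGF1 is a secreted ligand that signals through the IGF1 receptor, a tyrosine kinase, while the IGF2 receptor has no kinase and carries IGF2 and mannose 6-phosphate proteins to lysosomes. IGF-binding proteins hold the ligands away from the receptor. The metalloprotease PAPP-A cuts IGFBP4 and frees the bound IGF, PAPP-A2 cuts IGFBP5 and IGFBP3, and the stanniocalcins STC1 and STC2 bind and block both proteases. In the ovary, IGF1 raises the response of granulosa cells to FSH, and PAPP-A with IGFBP4 is studied as a switch for how much IGF a growing follicle can use.

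The depth recovered from the deposited values ran from 16392098 to 17020427 reads in the knockout libraries and from 16609477 to 19465847 reads in the wild-type libraries. FPKM are fragments scaled to exon length and to a total for each library. That total, as the deposited values imply it, was not the recovered depth. It was 1.12, 1.12 and 0.904 times the recovered reads in knockout 1 to 3, and 0.894, 0.939 and 1.12 times in wild type 1 to 3. The targeted gene did not separate the labels: Gm12840 stood at 0.426, 0.611 and 1.45 FPKM in knockout 1 to 3, against 1.83, 0.566 and 0.365 FPKM in wild type 1 to 3. Every direction between the groups below therefore rests on the labels alone. All 10 granulosa cell markers listed passed the filter on low values, and their summed level ran from 4708 to 9380 FPKM in the knockout libraries and from 6489 to 12211 FPKM in the wild-type libraries. Most of that sum was Inha, at 3973 to 8032 FPKM in the knockout and 5701 to 10808 FPKM in the wild-type libraries. Foxl2, a transcription factor of granulosa cell identity, ran from 26.2 to 48.5 FPKM in the knockout libraries and from 40.0 to 45.5 FPKM in the wild-type libraries. Across the 6 libraries, 83.2% of the variance lay on a first principal component that did not follow the labels, with scores of 23.2, 70.4 and -54.8 in knockout 1 to 3 and -49.8, -30.8 and 41.9 in wild type 1 to 3. The slope of centred log2 values on log2 exon length ordered the libraries nearly alike, with knockout 3 and wild type 1 exchanged, from 0.19 in knockout 2 and 0.11 in wild type 3 to -0.12 in knockout 3 and -0.13 in wild type 1, so long genes stood relatively higher in knockout 2 and wild type 3.

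The members lie on 7 chromosomes of mm10, and each has the same gene boundaries in GENCODE M21. Igfbp2 (chromosome 1, 72824503 to 72852474, plus strand) and Igfbp5 (chromosome 1, 72857932 to 72874884, minus strand) are direct neighbours that point at each other, with 5457 bases and no annotated gene between them. Igfbp4 (ENSMUSG00000017493) lies on chromosome 11 from 99041244 to 99054392 and Stc1 (ENSMUSG00000014813) on chromosome 14 from 69029238 to 69041804, both on the plus strand. Exon lengths in the deposited tables run from 1847 bases for Igfbp2 to 16791 bases for Igf1r. The antisense gene Gm41192 overlaps 229 exonic bases of Stc1, and the kit did not mark strand. Gm41192 stood at 0.279 FPKM in wild type 2 and was listed at 0 in the other 5 libraries. Promoter windows, from 250 bases before to 50 bases after a start site, were matched for 8 of the 10 members in RefSeq on GRCm38.p6. Igfbp2 has 2 windows there and the other 7 members 1 each. The windows of 4 members are shown: Igfbp4, which separates the labels, the upstream one of Igfbp2 and that of Igfbp5, neighbours that moved in opposite ways across libraries, and Igf2r, whose pattern lay closest to that of Igfbp5. Capitals mark matches, on either strand, to a set of 8 short motifs. The TATA box core was searched as TATAAA and the NR5A core as AAGGTCA. The cAMP response element was searched whole as TGACGTCA and by its shorter core as TGACG, and the E-box was searched as CACGTG. The hypoxia response element core was searched as ACGTG. The Sp1 core was searched as GGGCGG and the CCAAT box by its own letters.
Igfbp4, chr11:99040994-99041293, plus strand: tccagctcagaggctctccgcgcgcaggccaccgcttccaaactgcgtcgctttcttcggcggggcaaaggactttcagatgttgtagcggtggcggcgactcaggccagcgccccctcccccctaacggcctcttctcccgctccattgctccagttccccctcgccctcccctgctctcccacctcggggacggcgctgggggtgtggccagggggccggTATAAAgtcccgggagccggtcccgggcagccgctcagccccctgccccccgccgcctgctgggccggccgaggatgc
Igfbp2, chr1:72824230-72824529, plus strand: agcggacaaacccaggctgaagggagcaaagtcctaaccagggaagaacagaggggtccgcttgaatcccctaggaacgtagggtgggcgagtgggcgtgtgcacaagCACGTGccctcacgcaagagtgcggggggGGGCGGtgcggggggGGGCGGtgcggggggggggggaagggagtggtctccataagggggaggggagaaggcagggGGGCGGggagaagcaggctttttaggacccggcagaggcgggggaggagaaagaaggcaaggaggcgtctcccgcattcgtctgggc
Igfbp5, chr1:72874816-72875115, minus strand: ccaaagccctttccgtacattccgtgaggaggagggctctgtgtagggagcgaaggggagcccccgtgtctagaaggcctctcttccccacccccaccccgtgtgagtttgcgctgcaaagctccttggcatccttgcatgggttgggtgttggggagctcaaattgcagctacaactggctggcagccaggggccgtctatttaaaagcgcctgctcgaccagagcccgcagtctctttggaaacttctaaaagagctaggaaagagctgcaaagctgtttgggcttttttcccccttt
Igf2r, chr17:12769657-12769956, minus strand: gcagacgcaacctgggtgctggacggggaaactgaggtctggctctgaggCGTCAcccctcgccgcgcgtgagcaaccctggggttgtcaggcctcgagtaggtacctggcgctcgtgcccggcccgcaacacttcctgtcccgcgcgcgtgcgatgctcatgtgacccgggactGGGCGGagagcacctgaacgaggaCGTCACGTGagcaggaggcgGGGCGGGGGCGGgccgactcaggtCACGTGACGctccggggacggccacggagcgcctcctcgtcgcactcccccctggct
In the Igfbp4 window the TATA box core was the single match, 28 bases before the start site, and 13.6% of 32851 RefSeq promoter windows hold one. The upstream Igfbp2 window held an E-box, which 7.15% of windows hold, and 3 Sp1 cores, which 35.7% hold. The second Igfbp2 window, chr1:72825137-72825436 on the plus strand, held no match to any of the motifs. The Igf2r window held 2 E-boxes, 3 short cAMP cores, which 20.8% of windows hold, and 3 Sp1 cores, and 2 of the cAMP cores overlap an E-box. The short cAMP core lies within the whole element and the hypoxia core within the E-box, so those matches are not separate. The Igfbp5 window held no match to these letters. Whether any of these matches bears on the levels of the members was not tested.

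Across the 6 libraries the binding proteins were the most abundant members and Pappa2 the least. Median levels were 60.4 FPKM for Igfbp2, 29.2 for Igfbp4, 15.1 for Igfbp5, 13.8 for Igf1r, 5.07 for Igf2r, 4.82 for Igf1, 2.84 for Pappa, 2.80 for Stc1, 1.53 for Stc2 and 0.0618 for Pappa2. These levels are per kilobase of exon. The slope on exon length differed between libraries, so levels of members with unlike exon lengths compare only roughly. Igfbp2 stood above 91.5% of the 12495 genes past the filter at the median over libraries, and Stc2 above 13.7%. The filter asked for more than 1 FPKM in at least 3 libraries, and 9 of the 10 members passed it. Pappa2 did not. In this order the ranges of Igf1r and Igf2r, and of Stc2 and Pappa2, did not overlap. Igfbp2 exceeded Igfbp4, and Igf1 exceeded Pappa, in 6 of 6 libraries although their ranges overlapped. The other 5 neighbouring pairs kept this order in 4 of 6 libraries and do not differ beyond their spread.

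**Figure D1:**
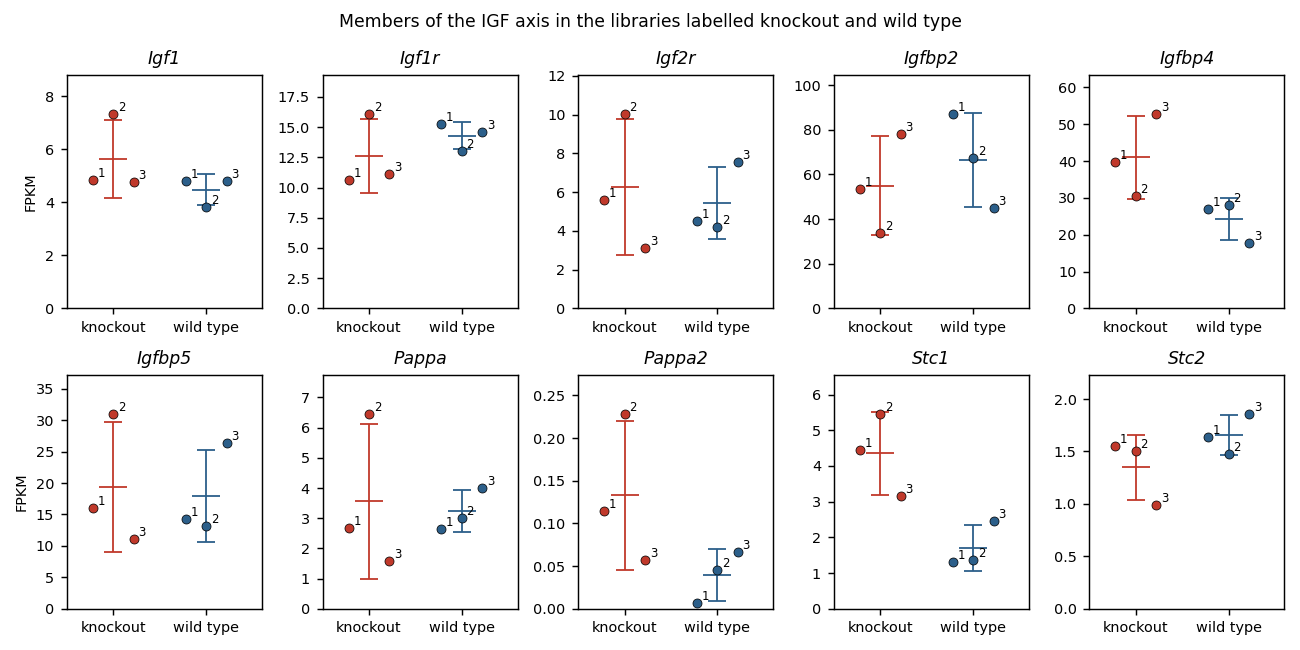
FPKM of each member in the libraries labelled knockout (left, red) and wild type (right, blue). Points are libraries with their replicate numbers, and bars give the mean ± SD (n = 3 each). The groups separate in Igfbp4, where knockout libraries reach down to 30.4 and wild-type libraries up to 28.0 FPKM, and in Stc1, where the same bounds are 3.16 and 2.45 FPKM.

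Igf1, the ligand gene, stood at 4.84, 7.36 and 4.76 FPKM in knockout 1 to 3 and at 4.82, 3.82 and 4.82 FPKM in wild type 1 to 3. Knockout 2 was the one high library, and the other 5 lay within 3.82 to 4.84 FPKM. Differences are given as log2 fold changes of FPKM + 1, knockout minus wild type, and for Igf1 this was 0.26 (95% interval -0.28 to 0.80, adjusted p = 0.993 by limma). Igf1r, the signalling receptor, stood at 10.6, 16.1 and 11.1 FPKM in the knockout libraries and at 15.2, 13.1 and 14.6 FPKM in the wild-type libraries. Knockout 2 was its highest library and knockout 1 its lowest, so the groups overlapped. Its level varied least among the receptors and binding proteins, 1.52-fold from the lowest to the highest library. Igf2r, the receptor that clears IGF2, stood at 5.60, 10.1 and 3.11 FPKM in the knockout libraries against 4.54, 4.21 and 7.58 FPKM in the wild-type libraries. Knockout 2 and wild type 3 were its high libraries and knockout 3 its low one, so the groups overlapped. The log2 fold changes were -0.19 for Igf1r (-0.74 to 0.36) and 0.09 for Igf2r (-0.87 to 1.05), each with adjusted p = 0.993 by limma.

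Igfbp4, which encodes the binding protein that PAPP-A cuts, stood at 39.7, 30.4 and 52.9 FPKM in knockout 1 to 3 and at 27.0, 28.0 and 17.8 FPKM in wild type 1 to 3. Each knockout library was above each wild-type library, though knockout 2 exceeded wild type 2 by 1.09-fold. It averaged 41.0 ± 11.3 FPKM in the knockout and 24.3 ± 5.64 FPKM in the wild-type libraries (SD, n = 3 each), a ratio of 1.69, and the log2 fold change was 0.73. Within libraries, Igfbp4 stood above 88.6%, 87.8% and 88.4% of the tested genes in knockout 1 to 3, and above 80.7%, 81.2% and 76.2% in wild type 1 to 3. These values chose Igfbp4 and carry no test. Such a pattern, every knockout library above every wild-type library, was found in 181 of 12495 tested genes (1.45%).

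Igfbp2, which encodes another high-affinity binding protein, ran the other way from Igfbp5 across the libraries. It stood at 53.5, 33.6 and 77.9 FPKM in the knockout libraries and at 87.3, 67.2 and 44.9 FPKM in the wild-type libraries, with its lowest values in knockout 2 and wild type 3. Igfbp5, which encodes a binding protein cut by both PAPP-A and PAPP-A2, stood at 16.0, 31.0 and 11.1 FPKM in the knockout libraries and at 14.3, 13.2 and 26.3 FPKM in the wild-type libraries, with its highest values in those same 2 libraries. The ratio of Igfbp2 to Igfbp5 therefore ran from 1.08 in knockout 2 and 1.70 in wild type 3 to 7.05 in knockout 3. Within their labels, 34.2% of all tested genes were highest in knockout 2 and wild type 3, and 38.1% were lowest there. These patterns are therefore not particular to Igfbp2 and Igfbp5. Neither gene passed the test between the labels: the log2 fold change was -0.30 for Igfbp2 (-1.26 to 0.66, adjusted p = 0.993 by limma) and 0.05 for Igfbp5 (-0.99 to 1.09, adjusted p = 0.994 by limma).

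The binding-protein genes were also set against each other as shares of the summed FPKM of Igfbp1 to Igfbp6. The sum ran from 128 to 311 FPKM in the knockout libraries and from 121 to 237 FPKM in the wild-type libraries. Igfbp4 made up 23.2%, 23.8% and 17.0% of it in knockout 1 to 3, against 11.4%, 13.3% and 14.6% in wild type 1 to 3, and these shares did not overlap. They use the same values that helped to choose Igfbp4, so they are a description and no further separation of the labels. How often shares of other genes separate the labels was not computed. Igfbp6, which encodes a binding protein with a preference for IGF2, took from 20.9% to 53.1% in the knockout libraries and from 21.6% to 46.5% in the wild-type libraries. Igfbp1 stayed under 0.1% in every library.

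**Figure D2:**
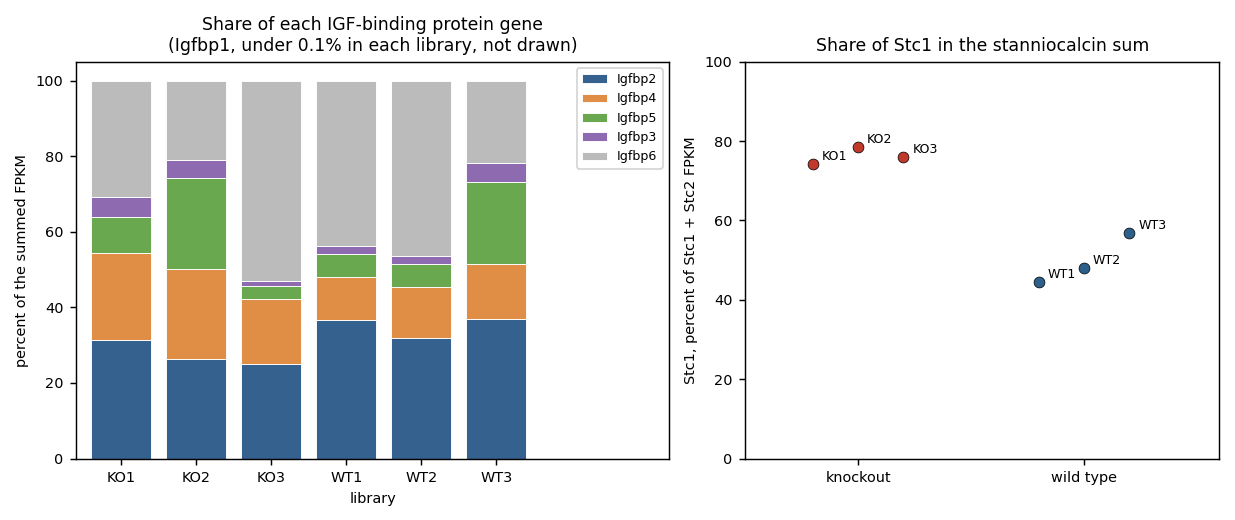
Left, share of each IGF-binding protein gene in their summed FPKM, by library (KO, knockout; WT, wild type). The Igfbp4 share lies between 17.0% and 23.8% in knockout libraries and between 11.4% and 14.6% in wild-type libraries. Right, share of Stc1 in the FPKM of Stc1 and Stc2 together, which lies between 74.2% and 78.4% in knockout libraries and between 44.5% and 56.8% in wild-type libraries. Igfbp4 and Stc1 were chosen in part for this contrast, so both shares are a description.

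Pappa, the gene of the IGFBP4 protease, stood at 2.66, 6.46 and 1.57 FPKM in knockout 1 to 3 and at 2.65, 3.02 and 3.997 FPKM in wild type 1 to 3. Both its highest and its lowest library were labelled knockout, a 4.12-fold range that spans all wild-type values. The log2 fold change was -0.02, with an interval of -0.98 to 0.94 (adjusted p = 0.999 by limma). Pappa2, the gene of the second pappalysin, was near the detection limit. It stood at 0.114, 0.228 and 0.0568 FPKM in the knockout libraries, from 22, 43 and 9 reads, and at 0.00654, 0.0460 and 0.0668 FPKM in the wild-type libraries, from 1, 8 and 15 reads. Knockout 3 was below wild type 3, so the groups overlapped. Pooling the reads of a label, the knockout level was 3.15 times the wild-type level (exact 95% interval 1.97 to 5.23, from counting error alone). In the fit without a filter the log2 fold change was 0.12 (-0.03 to 0.27, adjusted p = 0.958 by limma), and the pseudocount of 1 FPKM holds any change at this level close to 0.

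Stc1, which encodes an inhibitor of both pappalysins, stood at 4.45, 5.46 and 3.16 FPKM in knockout 1 to 3 and at 1.32, 1.37 and 2.45 FPKM in wild type 1 to 3. Each knockout library was above each wild-type library, the nearest being knockout 3 and wild type 3, 1.29-fold apart. Their reads, 204 and 224, give exact 95% counting intervals of 2.74 to 3.62 FPKM in knockout 3 and 2.14 to 2.79 FPKM in wild type 3. These intervals meet. The gap also rests on the deposited scaling, whose total was 0.904 times the recovered reads in knockout 3 and 1.12 times in wild type 3. Out of 17020427 and 19465847 recovered reads, the 204 and 224 reads lie closer together than the FPKM do. Stc1 averaged 4.35 ± 1.15 FPKM in the knockout and 1.71 ± 0.638 FPKM in the wild-type libraries (SD, n = 3 each), a ratio of 2.55. Its log2 fold change was 0.98, and 1.04 when scaled to recovered reads. As for Igfbp4, these values chose the gene and carry no test. Stc2, the gene of the inhibitor that binds PAPP-A covalently, stood at 1.55, 1.50 and 0.992 FPKM in the knockout libraries and at 1.64, 1.47 and 1.86 FPKM in the wild-type libraries, with a log2 fold change of -0.19 (-0.65 to 0.28, adjusted p = 0.993 by limma). Its groups overlapped, and knockout 3 was its low library. Stc1 therefore made up 74.2%, 78.4% and 76.1% of the stanniocalcin FPKM in knockout 1 to 3, against 44.5%, 48.1% and 56.8% in wild type 1 to 3. The sum of both stanniocalcins over both pappalysins was 2.16, 1.04 and 2.56 in the knockout libraries and 1.11, 0.927 and 1.06 in the wild-type libraries, so on this ratio knockout 2 lay among the wild-type values.

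Other cells of the ovary can also make these transcripts, and in bulk RNA fewer cells of a type cannot be told apart from less RNA per cell. Of 12 markers of stroma, pericytes and smooth muscle 9 passed the filter, and 8 of those 9 had positive log2 fold changes with a median of 0.49, where the median over all tested genes was -0.04. Their summed level ran from 142 to 231 FPKM in the knockout libraries and from 118 to 268 FPKM in the wild-type libraries. Col1a1, a collagen chain of stromal cells, stood at 14.6, 12.5 and 8.50 FPKM in knockout 1 to 3 and at 7.54, 6.32 and 9.01 FPKM in wild type 1 to 3, so its groups overlapped at replicate 3. In 3 of the 12 markers every knockout library was above every wild-type library, the order that Stc1 and Igfbp4 also have and that 1.45% of all tested genes have. These were the collagen gene Col1a2, at 6.57 to 8.91 FPKM in the knockout and 4.36 to 5.88 FPKM in the wild-type libraries, the receptor gene Pdgfrb, at 2.31 to 2.69 FPKM in the knockout and 1.34 to 2.14 FPKM in the wild-type libraries, and the smooth muscle myosin gene Myh11, at 0.986 to 1.49 FPKM in the knockout and 0.554 to 0.707 FPKM in the wild-type libraries. Myh11 was under the filter, so it is not among the genes behind the 1.45%. Other genes of this list went the other way or overlapped widely. Mgp averaged 85.3 FPKM in the knockout and 99.8 FPKM in the wild-type libraries, and Tagln, under the filter, 0.327 and 0.599 FPKM. Acta2 ran from 34.6 to 75.1 FPKM in the knockout and from 27.2 to 83.2 FPKM in the wild-type libraries. The summed theca markers ran from 496 to 703 FPKM in the knockout and from 655 to 907 FPKM in the wild-type libraries, with 4 of 5 tested positive. Most of that sum was Star, at 445 to 647 FPKM in the knockout and 620 to 827 FPKM in the wild-type libraries. Star was the 1 negative gene and is also listed here among the granulosa genes on which FSH and IGF1 act, so the sum says little about theca cells. The summed endothelial markers ran from 20.4 to 24.5 FPKM in the knockout and from 11.7 to 20.9 FPKM in the wild-type libraries, with 5 of 6 tested positive. Eng, the endoglin gene, was the 1 endothelial marker of 8 in that order, at 5.03 to 7.54 FPKM in the knockout and 2.03 to 4.21 FPKM in the wild-type libraries. Leukocyte markers summed to 36.1 to 53.1 FPKM in the knockout libraries and 36.7 to 58.0 FPKM in the wild-type libraries, with 2 of 5 positive. Of the granulosa cell markers 3 of 10 were positive and 7 negative, with a median log2 fold change of -0.24. Of the oocyte markers 1 of 8 was positive and of the erythroid markers 0 of 5, with erythroid sums of 473 to 3512 FPKM in the knockout and 613 to 4455 FPKM in the wild-type libraries. No marker of these lists was at 0 in all libraries, and Ptprc, the pan-leukocyte gene, reached at most 0.0747 FPKM in the knockout and 0.0575 FPKM in the wild-type libraries. The part of other cells in the Stc1 and Igfbp4 values was not tested.

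The comparison between labels called none of the members. In limma's fit over 12495 genes, 0 passed an adjusted p of 0.05 (0%), and 91 (0.728%) had an unadjusted p under 0.05. With voom weights on the recovered reads the count was again 0, and 75 genes (0.6%) had an unadjusted p under 0.05. Of the 7 members past the filter that were not chosen for this contrast, 3 were positive and 4 negative, with a median log2 fold change of -0.02. Over all tested genes the median was -0.04. The narrowest of their intervals was that of Stc2 and the widest that of Igfbp5, which runs from -0.99 to 1.09. Leaving out knockout 3 and wild type 3 together brought 3451 genes (27.6%) past the limma threshold, Stc1 being the 1 member among them. As Stc1 was chosen in part for this contrast, and its nearest libraries across labels are those left out, nothing is read from that call. In that setting the log2 fold change of Igfbp4 was 0.33, against 0.73 with all libraries. The first principal component divides the 4 libraries then left in the same way as the labels, so the label and that component cannot be told apart in it.

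**Figure D3:**
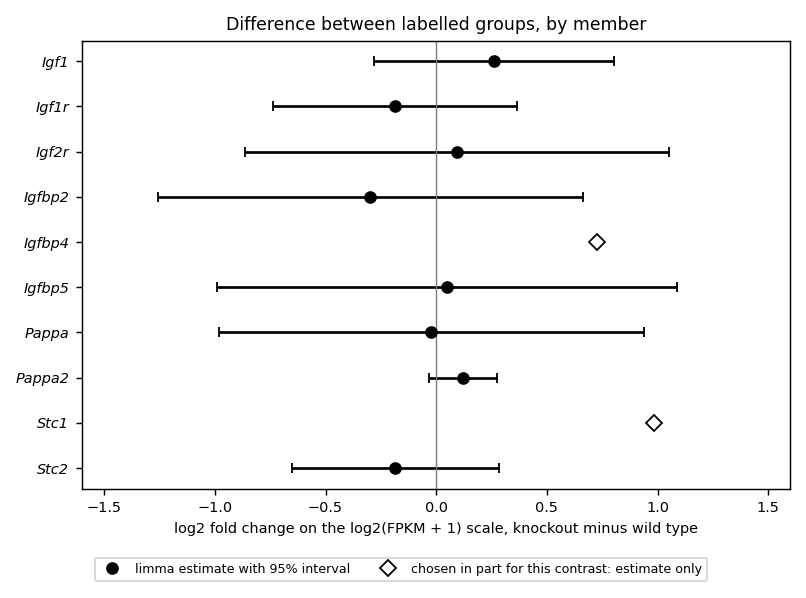
Log2 fold change of each member on the log2(FPKM + 1) scale, knockout minus wild type. Filled points with bars are limma estimates with 95% intervals (Pappa2 from the fit without a filter), all of which include 0. Open diamonds are Stc1 at 0.98 and Igfbp4 at 0.73, shown without an interval because this contrast helped to choose them.

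The members' extremes fell mostly in the same libraries, 1 of each label. Igf2r, Igfbp5, Pappa, Pappa2 and Stc1 were each highest in knockout 2 among knockout libraries and in wild type 3 among wild-type libraries. That makes 5 of 10 members, and the same holds for 34.2% of all tested genes. Igfbp2 and Igfbp4 were lowest in both these libraries, 2 of 10 members against 38.1% of tested genes. Since a large share of all genes has either order, these counts are no result about the axis. The exon lengths differ in the same way: the median was 9438 bases for the 5 members that peaked there and 3132 bases for the 2 that were lowest, against 6004 and 2389 bases for tested genes of these kinds. Within each label Stc1 and Igfbp4 had opposite extremes: Stc1 was highest, and Igfbp4 lowest, in knockout 2 and in wild type 3. When the length slope of the libraries entered the fit, limma called 1 gene (0.008%) and no member, and 627 genes (5.02%) had an unadjusted p under 0.05. The log2 fold change was then 0.82 for Stc1 and 0.91 for Igfbp4, against 0.98 and 0.73 without it. Those of Igfbp5 and Igf2r turned to -0.26 and -0.20. Reads of mitochondrially encoded genes moved with the same libraries, at 1.52%, 4.19% and 0.146% of reads in knockout 1 to 3 and 0.227%, 0.311% and 2.08% in wild type 1 to 3, and the part of RNA quality in the members' values was not tested.

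**Figure D4:**
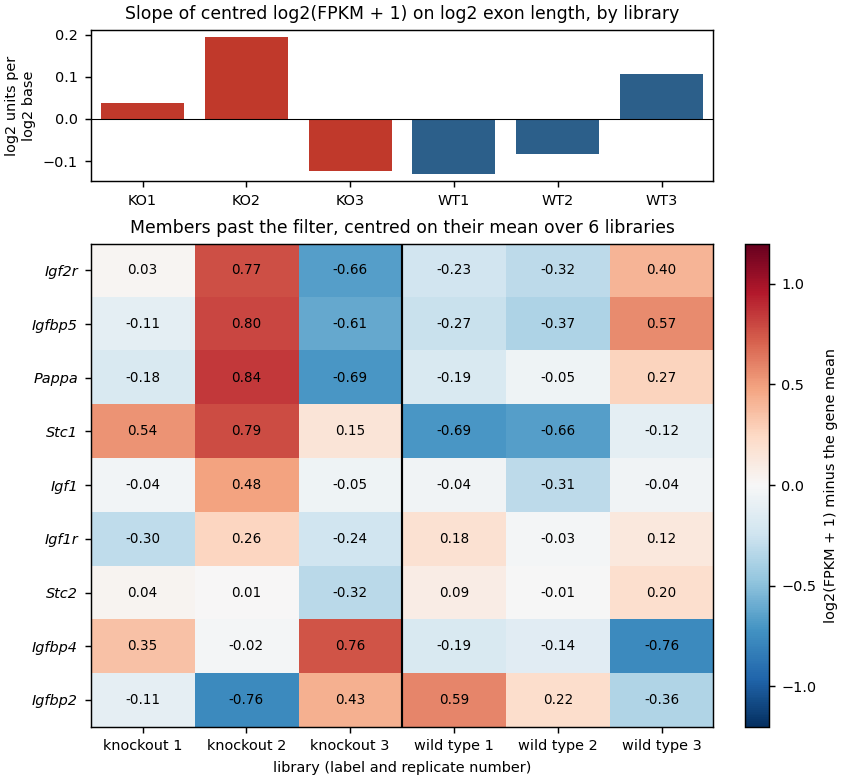
Top, slope of centred log2(FPKM + 1) on log2 exon length over all tested genes in each library (KO, knockout; WT, wild type). Bottom, log2(FPKM + 1) of the 9 members past the filter minus each gene's mean over 6 libraries. Igf2r, Igfbp5 and Pappa are high where the slope is high, and Igfbp2 runs against it. Stc1 and Igfbp4, chosen in part for this contrast, are higher in each knockout than in each wild-type library. Igfbp4 in knockout 2 lies at -0.02, just below its mean.

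Levels of pairs of members were compared within each library, a measure that did not choose the members. Paired members differ in exon length, and the slope on exon length differed between libraries. The part of exon length in these ratios was not tested. Igf1r was above Igf2r in 6 of 6 libraries, by a mean log2 ratio of 1.28 ± 0.492 (SD, n = 6) after adding 0.1 FPKM to each value. Pappa was above Pappa2 in 6 of 6, by 4.19 ± 0.522, and Igfbp4 was below Igfbp2 in 6 of 6, by a mean log2 ratio of -0.90 ± 0.608. For each of these 3 pairs the exact two-sided sign-flip permutation p was 0.0312, the smallest that 6 libraries allow, and 0.0625 after Benjamini-Hochberg adjustment over the 6 pairs compared, so none passed 0.05. Stc1 was above Stc2 in 4 of 6 libraries (0.80 ± 0.920, exact permutation p = 0.156, adjusted p = 0.188). Igfbp4 was above Igfbp5 in 4 of 6 (0.82 ± 0.999, exact permutation p = 0.125, adjusted p = 0.188), and Stc1 above Pappa in 2 of 6 (-0.21 ± 0.873, exact permutation p = 0.562, adjusted p = 0.562). Values by label are given as a description for the ratios whose groups did not overlap. Most of them hold Stc1 or Igfbp4, chosen for that contrast, and how often ratios of other genes separate the labels was not computed. Igfbp4 over Igfbp2 was 0.741, 0.906 and 0.679 in knockout 1 to 3 and 0.310, 0.416 and 0.396 in wild type 1 to 3, and Stc1 over Stc2 was 2.87, 3.64 and 3.18 in knockout 1 to 3 and 0.802, 0.927 and 1.32 in wild type 1 to 3. Stc1 over Pappa was 1.67, 0.846 and 2.01 in knockout 1 to 3 and 0.496, 0.453 and 0.612 in wild type 1 to 3. For Pappa over Pappa2 the log2 ratio was 3.69, 4.32 and 3.41 in knockout 1 to 3 and 4.69, 4.42 and 4.62 in wild type 1 to 3, and it rests on the few reads of Pappa2.

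**Figure D5:**
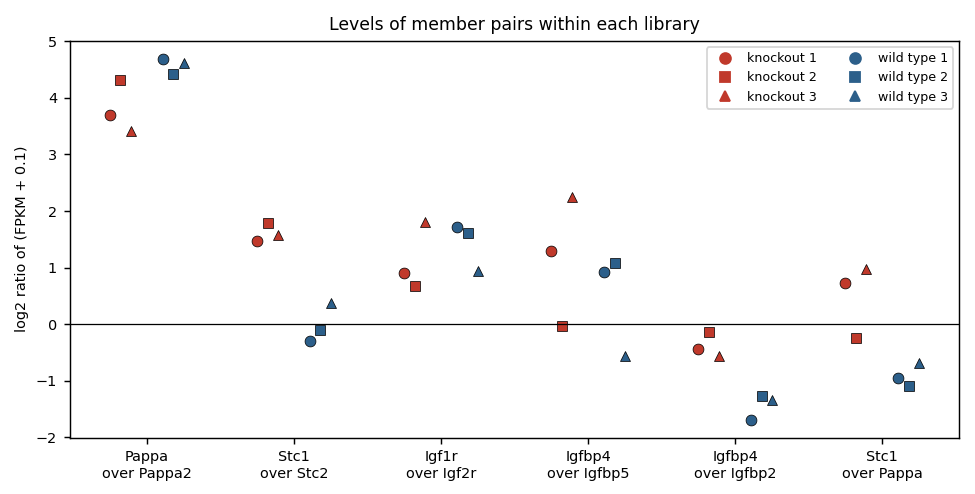
Log2 ratio of (FPKM + 0.1) of 2 members within each library, for 6 pairs. Red marks are knockout and blue marks wild-type libraries, with the shape giving the replicate number. The 3 pairs with 1 sign in all 6 libraries are Pappa over Pappa2, Igf1r over Igf2r and Igfbp4 over Igfbp2.

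None of the other genes of the axis was called between the labels. Of all tested genes 5628 had a positive and 6867 a negative value, against which the signs within lists are to be read. Of 14 further ligands, receptors and carriers 5 were tested, 4 positive and 1 negative. In 1 of the 14, Igf2bp1, every knockout library was below every wild-type library, an order that 2.08% of all tested genes have. Igf2bp1 was under the filter, at 0.0221 to 0.0335 FPKM in the knockout and 0.0379 to 0.0487 FPKM in the wild-type libraries. Igfbp7, which encodes a secreted protein related to the binding proteins with low affinity for IGF, stood at 68.9 ± 25.2 FPKM in the knockout libraries and 46.8 ± 11.5 FPKM in the wild-type libraries (SD, n = 3 each). Insr, the insulin receptor gene, stood at 5.70 ± 2.21 FPKM in the knockout and 4.48 ± 1.13 FPKM in the wild-type libraries. Of 7 other proteases and inhibitors 5 were tested, 3 positive and 2 negative. Adamts1, a protease gene of ovulation, stood at 132 ± 81.2 FPKM in the knockout and 80.6 ± 59.1 FPKM in the wild-type libraries, and Adam9, a gene of a membrane protease that can cut IGFBP5, at 20.8 ± 12.9 FPKM in the knockout and 12.7 ± 9.11 FPKM in the wild-type libraries. The most abundant gene of that list was Htra1, a secreted serine protease gene, at 492 to 1165 FPKM in the knockout and 637 to 1214 FPKM in the wild-type libraries. Htra1, Igfbp6, Igf2bp1, Foxo3 and the cell markers given with values were named after their values were seen.

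Of the 22 genes of IGF1 receptor signalling, all tested, 19 were positive and 3 negative, with a median log2 fold change of 0.27. In 1 of the 22, Foxo3, every knockout library was above every wild-type library, an order that 1.45% of all tested genes have. Foxo3 ran from 11.2 to 14.6 FPKM in the knockout and from 7.40 to 11.1 FPKM in the wild-type libraries. In 18 of the 22 the highest libraries were again knockout 2 and wild type 3, where 34.2% of all tested genes had that order, and the median exon length of those 18 was 9089 bases. Irs2, the docking protein gene downstream of the receptors for insulin and IGF1, stood at 16.4, 30.4 and 3.48 FPKM in knockout 1 to 3 and at 2.63, 5.04 and 9.48 FPKM in wild type 1 to 3. The groups overlapped through knockout 3. Sos1, an exchange factor gene of the RAS branch, stood at 3.82 ± 2.29 FPKM in the knockout and 2.18 ± 1.30 FPKM in the wild-type libraries. Of the 10 granulosa genes on which FSH and IGF1 act, 3 were positive and 7 negative, with a median of -0.17. Cyp19a1, the aromatase gene, stood at 2.96, 6.23 and 3.73 FPKM in knockout 1 to 3 and at 14.4, 7.16 and 5.39 FPKM in wild type 1 to 3, and Inha, the inhibin alpha gene, at 5906 ± 2036 FPKM in the knockout and 8992 ± 2855 FPKM in the wild-type libraries. Cyp19a1 overlapped between the labels at knockout 2 and wild type 3. Fshr, the FSH receptor gene, ran from 22.0 to 25.0 FPKM in the knockout libraries and from 20.6 to 26.5 FPKM in the wild-type libraries. All tested genes named here from these lists had an adjusted p between 0.993 and 0.995 by limma.

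For each member past the filter the most alike tested genes were found, by the mean absolute difference of log2(FPKM + 1) over the 6 libraries after centring each gene. For Igfbp2 this was Reep2, at 0.011 log2 units, the closest match of any member, and for Stc2 it was Ubash3b at 0.028. For Igfbp5 it was Gnl3l at 0.060, for Igf2r Abat at 0.041, for Pappa Zpld1 at 0.087, for Igf1 Golgb1 at 0.039 and for Igf1r 1700066M21Rik at 0.055. The 2 genes chosen for the contrast had the most distant nearest genes. This distance uses the same values that helped to choose them, so it is no separate result about these genes. For Igfbp4 these were Fcrls at 0.13, Tmem119 at 0.13 and Angpt4 at 0.17, and for Stc1 they were Nek7 at 0.15, the pseudogene Gm18541 at 0.16 and the pseudogene 9330132A10Rik at 0.16. Fcrls, best known from microglia, stood at 2.02, 1.31 and 2.64 FPKM in knockout 1 to 3 and at 1.62, 1.32 and 0.589 FPKM in wild type 1 to 3, so its groups overlapped. Among the members, Igf2r and Igfbp5 were closest, at 0.080 log2 units, and Igfbp2 and Igfbp5 farthest, at 0.83.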

How the data were processed

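Granulosa cell RNA of 6 libraries was sequenced with a TruSeq RNA kit according to the protocols in the labels, and such libraries are unstranded. Values were deposited as FPKM, in 1 table for each library, per the file headers. The submitters' processing notes name HISAT2 2.0.5 and mm10. How reads were counted, with which annotation and scaling, is not given in the sources used here. FPKM times exon length gave whole reads, within 0.01 reads, in 100% of values above 0.

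Groups came from sample titles. The 10 members and all gene lists were chosen with earlier results of these data known. limma 3.58.1 in R 4.3.3 was fitted to log2(FPKM + 1) of 12495 genes with more than 1 FPKM in at least 3 libraries, with the label as its single term and a trended prior. P-values are two-sided, Benjamini-Hochberg adjusted, with a threshold of 0.05. The pseudocount of 1 shrinks the fold changes of low genes. Pairs were compared by exact sign-flip permutation (scipy 1.17.1). Named genes were the members, Gm12840, each member's nearest genes and, with no gene called, the 2 largest changes of each list. The fit was also run on simulated counts with set fold changes, drawn for each gene on its own. Those counts lack the component shared by many genes that these libraries have, so that run does not measure power or error rates here. Alternatives were pseudocounts, filters, scaling to the recovered reads of each library (library totals), voom, the replicate number as a block, the length slope, and leaving out libraries. Intervals on reads cover counting error only.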

Additional observations from a re-analysis of the deposited data

How the results depend on the processing

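The count of 0 genes called became 1 with the length slope as a covariate and 3451 with replicate 3 of both groups left out. The count of 0 members called became 1 in that last setting, where the first principal component divides the remaining libraries. That member was Stc1, chosen in part for this contrast, so the call is no result about the members. Both counts stayed at 0 in the other alternatives run, leaving out each library included. With the replicate block, 0 genes and 0 members were called. Deviations from the group means correlated at -0.422, -0.672 and -0.894 between libraries of the same number. Of 6 libraries, 0 were closest to their own number in the other group, so the numbers do not pair the samples. The log2 fold changes of Stc1 (0.82 to 1.35) and Igfbp4 (0.33 to 0.92) kept their sign over their alternatives, which for leaving out libraries follows from their choice, since their groups do not overlap. Some other members, none of them called, changed sign for causes not tested. Under the length slope, Igf2r turned to -0.20 and Igfbp5 to -0.26. Pappa turned to 0.051 with library totals and 0.45 without replicate 3 of both groups. With 1 library left out, Igf2r ran from -0.27 to 0.44, Igfbp2 from -0.58 to 0.011, Igfbp5 from -0.34 to 0.37 and Pappa from -0.45 to 0.32. No pair of members changed sign. With a pseudocount of 1 the mean log2 ratio of Pappa over Pappa2 was 1.94 rather than 4.19. With fewer than 6 libraries no pair could reach 0.05, so these were compared as values. Pappa2, with 24 reads over the wild-type libraries, is limited by depth.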

Other observations

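Igf2, the gene of the second IGF ligand, was listed at 0 in all 6 libraries. In GENCODE M21 it shares 3596 exonic bases with the protein-coding gene Gm49394 on the same strand, which was also listed at 0. How the authors' counting treated reads that 2 genes share is not given in the sources used here, so the level of Igf2 cannot be read from these tables. Igf1os, antisense to Igf1 with no exonic base shared, stood at 0.144 to 0.399 FPKM in the knockout and 0.176 to 0.594 FPKM in the wild-type libraries. Airn, the noncoding RNA antisense to Igf2r that overlaps it in introns, stood at 0.179 to 0.534 FPKM in the knockout and 0.217 to 0.489 FPKM in the wild-type libraries, under the filter on low values.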
